A study of Mus musculus with 6 samples.

Results

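The genes described here are the drug-conjugating and flavin monooxygenase enzymes of the mouse, followed in the lateral septum (LS) after a long olanzapine diet. Members were taken by symbol, as every Ugt, Sult, Gst or Fmo gene of the deposited tables with pseudogenes left out, which gave 73 of 35415 genes: 22 Ugt, 21 Sult, 23 Gst and 7 Fmo. The rule uses the symbol alone. The animals were wild-type female C57BL/6 mice, delivered at about 8 weeks of age and fed either plain maintenance chow (control group) or the same chow with olanzapine at 50 mg/kg of feed (olanzapine group, named MetS in the tables) for 12 weeks. Each of the 6 RNA-seq libraries, 3 per group, was made from the LS of 3 mice pooled together, so the spread between single mice was not measured.

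These enzymes make small molecules more soluble. UDP-glucuronosyltransferases (Ugt) attach glucuronic acid, sulfotransferases (Sult) attach sulfate from the donor PAPS, glutathione S-transferases (Gst) attach glutathione to reactive compounds, and flavin-containing monooxygenases (Fmo) put oxygen on nitrogen or sulfur atoms. In people, olanzapine itself is cleared mainly by N-glucuronidation and by oxidation, in which both cytochrome P450 enzymes and flavin monooxygenases take part. Most of this work is done in liver, intestine and kidney, while the brain holds its own set of members, such as the myelin lipid enzyme Ugt8a and the neuronal Sult4a1.

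Total counts ran from 39406866 to 39868872 in control and from 38208153 to 38767373 in the olanzapine pools, so every olanzapine pool was slightly shallower. The markers of neurons, astrocytes, oligodendrocytes and LS neurons were counted in all 6 libraries, with 0 calls in these lists. Their median log2 fold changes were 0.15, -0.20, -0.006 and -0.32 in that order. Summed astrocyte counts were 65501 to 72533 in control and 51932 to 65167 in olanzapine. For LS neurons the sums were 78421 to 98501 in control and 63235 to 85200 in olanzapine. Of 20 hepatocyte markers, by contrast, 18 were tested and 15 were called higher in the olanzapine group, beside 0.950% of all tested genes. Of the listed genes 0 were called lower and 0 were at zero in all pools. The list was chosen with earlier results of these data known. It holds Apoa1, Apoa2, Apoc3 and Apoh, which the study itself reported as raised. The summed count of that list was 889 to 1282 per control pool and 10873 to 14082 per olanzapine pool. The 8 choroid plexus markers varied from pool to pool within both groups, with sums from 2551 to 295745. The 6 brain endothelium markers summed to 6668, 6787 and 5807 counts in control and to 6399, 3951 and 3417 in olanzapine, with a median log2 fold change of -0.41 and 0 calls.

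Of the 73 members, 31 passed the count filter and were tested, 25 had too few counts to be tested, and 17 had a count of 0 in all 6 pools. A gene was called when edgeR's quasi-likelihood test gave a Benjamini-Hochberg adjusted p under 0.05 over all 17255 tested genes and the log2 fold change (olanzapine over control) was beyond 1 in size. Ugt2b36 and Ugt2b5 were called higher, which is 2 of 31 tested members or 6.45%, where 0.950% of all tested genes were called higher. The call for lower expression was met by 0 members, where 0.0580% of all tested genes met it, and DESeq2 also called 0 lower. At an unadjusted p under 0.05 there were 5 members, all higher and 0 lower, which is 16.1% against 17.6% of all genes. In 5 of the 31 tested members (Ugt2b36, Ugt2b5, Ugt2b34, Gsta3 and Gstz1) every olanzapine pool exceeded every control pool in normalised counts, 16.1% against a background of 13.3%, and in 0 of them they lay below, against a background of 11.0%.

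Most tested members hardly moved. A positive log2 fold change was seen in 17 and a negative one in 14, the median was 0.0058 beside 0.004 for all tested genes, and 24 of 31 lay within 0.5 of zero. Ugt2b34, Ugt2b36 and Ugt2b5 passed the filter only through their olanzapine pools, so these 3 had to differ once they were tested. For the 10 members with a mean FPKM (fragments scaled to gene length and library size) of at least 10, the log2 fold changes lay between -0.20 and 0.16, and the outermost bounds of their 95% intervals were -0.54 and 0.42. The pools are labelled as replicates, and with 3 against 3 the smallest p of an exact two-sided permutation test is 0.1.

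**Figure D1:**
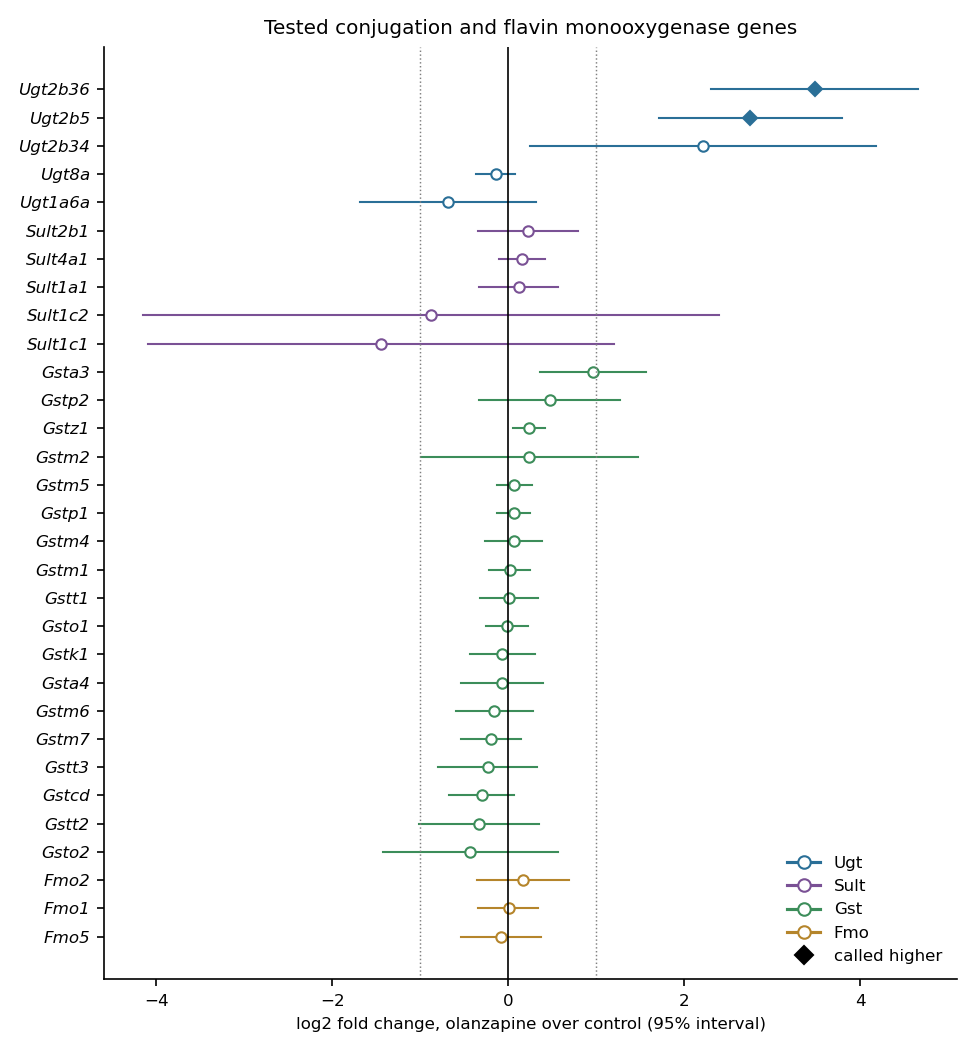
Log2 fold change of olanzapine over control with its 95% interval for the 31 tested members, grouped by family and coloured by it; filled diamonds are the called genes and dotted lines mark the fold limit of 1. Ugt2b36 at 3.49 and Ugt2b5 at 2.75 stand to the right of the limit with their whole intervals, and most Gst and Fmo members sit close to zero.

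In the plot of log2 fold changes the wide intervals belong to members with few counts or uneven pools, such as Ugt2b34, Sult1c1 and Sult1c2. Narrow ones belong, for example, to Ugt8a, Sult4a1, Gstm1, Gstm5, Gstp1 and Gstz1.

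Both called genes belong to the Ugt2b subfamily. These glucuronosyltransferases of the endoplasmic reticulum act on steroids, bile acids and drugs, and in the mouse they lie side by side on chromosome 5. Ugt2b36 (chr5:87065927-87092555, minus strand, GRCm38) and Ugt2b5 (chr5:87124946-87140340, minus strand) are neighbours in that cluster. Their promoters, from RefSeq on GRCm38.p6 and running from 250 bases before to 50 after the start site, are shown because both genes were called; capitals mark the longest stretch that both share, 24 bases long.
Ugt2b36 promoter (chr5:87092506-87092805, minus strand): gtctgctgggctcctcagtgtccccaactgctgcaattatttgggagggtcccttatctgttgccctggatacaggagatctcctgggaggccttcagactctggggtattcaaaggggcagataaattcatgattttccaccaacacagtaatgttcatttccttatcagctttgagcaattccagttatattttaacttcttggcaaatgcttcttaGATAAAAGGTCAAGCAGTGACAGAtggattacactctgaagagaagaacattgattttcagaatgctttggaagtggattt
Ugt2b5 promoter (chr5:87140291-87140590, minus strand): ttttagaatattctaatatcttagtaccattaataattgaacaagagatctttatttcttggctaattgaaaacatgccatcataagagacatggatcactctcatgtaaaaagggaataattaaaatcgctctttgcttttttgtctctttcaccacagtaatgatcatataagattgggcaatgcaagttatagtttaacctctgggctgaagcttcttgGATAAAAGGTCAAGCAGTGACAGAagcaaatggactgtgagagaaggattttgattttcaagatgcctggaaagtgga
The shared stretch begins 31 bases before the start site of Ugt2b36 and 28 bases before that of Ugt2b5. It was found on either strand in 3 of 32851 mouse promoters of this length, or 0.00913%, the third being that of Ugt2b37, which lies further along the same cluster. A promoter was listed for 63 of the 73 members. The match describes the letters only.

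Ugt2b36 had 2 counts in each of the control pools. The olanzapine pools had 22, 23 and 25 counts. The groups did not overlap, and the counts within each group were nearly equal. The gene passed the filter only through its olanzapine pools, so it had to differ once tested. Counting error at 2 reads is larger than the control SD given next, so that SD does not show that the pools were alike. Normalised counts were 1.99 ± 0.0121 (SD, n = 3) in control and 23.5 ± 1.41 (SD, n = 3) in olanzapine. The log2 fold change was 3.49 ± 0.51 (standard error, SE, 95% interval 2.31 to 4.66), with an adjusted p of 0.0154 by edgeR. Summed over pools, 6 against 70 counts gave a depth-corrected ratio of 11.8 with an exact 95% interval of 5.18 to 33.4, which covers counting error only. Of the stretches of 100 bases in its exons, 100% were found in no other annotated gene.

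Ugt2b5 counted 5, 8 and 4 reads in control and 32, 48 and 35 in olanzapine, again without overlap. Normalised counts were 5.62 ± 2.04 (SD, n = 3) and 38.5 ± 7.77 (SD, n = 3). The log2 fold change was 2.75 ± 0.45 (SE, 95% interval 1.71 to 3.79), with an adjusted p of 0.0233 by edgeR. Only 75.3% of its 100-base stretches were unique, with Ugt2b38 sharing most of the rest, so reads may have been split between these copies. Ugt2b38 itself had 1 count in all, in olanzapine pool 3. By edgeR both calls were lost when control pool 1, 2 or 3 or olanzapine pool 2 or 3 was left out, and kept without olanzapine pool 1. The log2 fold changes stayed between 3.43 and 3.51 for Ugt2b36 and between 2.56 and 3.08 for Ugt2b5 in these fits. Over all alternatives tried, the adjusted p ranged from 0.00129 to 0.0882 for Ugt2b36 and from 3.16e-04 to 0.110 for Ugt2b5.

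The other Ugt2b genes had fewer counts. Ugt2b34 counted 6, 2 and 0 in control and 10, 13 and 15 in olanzapine, a log2 fold change of 2.21 ± 0.85 (SE, 95% interval 0.25 to 4.18) that was not called (adjusted p = 0.230, edgeR). The log2 fold change of Ugt2b34 moved between 1.66 and 3.53 when a pool was left out. Ugt2b35 counted 0, 1 and 0 against 9, 3 and 7 and was too low to be tested; its pooled count ratio was 19.3, with an exact interval of 3.07 to 801. Both showed olanzapine pools above every control pool. Ugt2b1 counted 2, 3 and 0 against 4, 1 and 17, so its pooled ratio of 4.47 (1.65 to 15.1) came mostly from olanzapine pool 3, and its groups overlapped. Ugt2b37 counted 0, 0 and 0 against 1, 0 and 1. Added together, the 7 Ugt2b genes counted 15, 16 and 6 in control and 78, 88 and 101 in olanzapine.

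**Figure D2:**
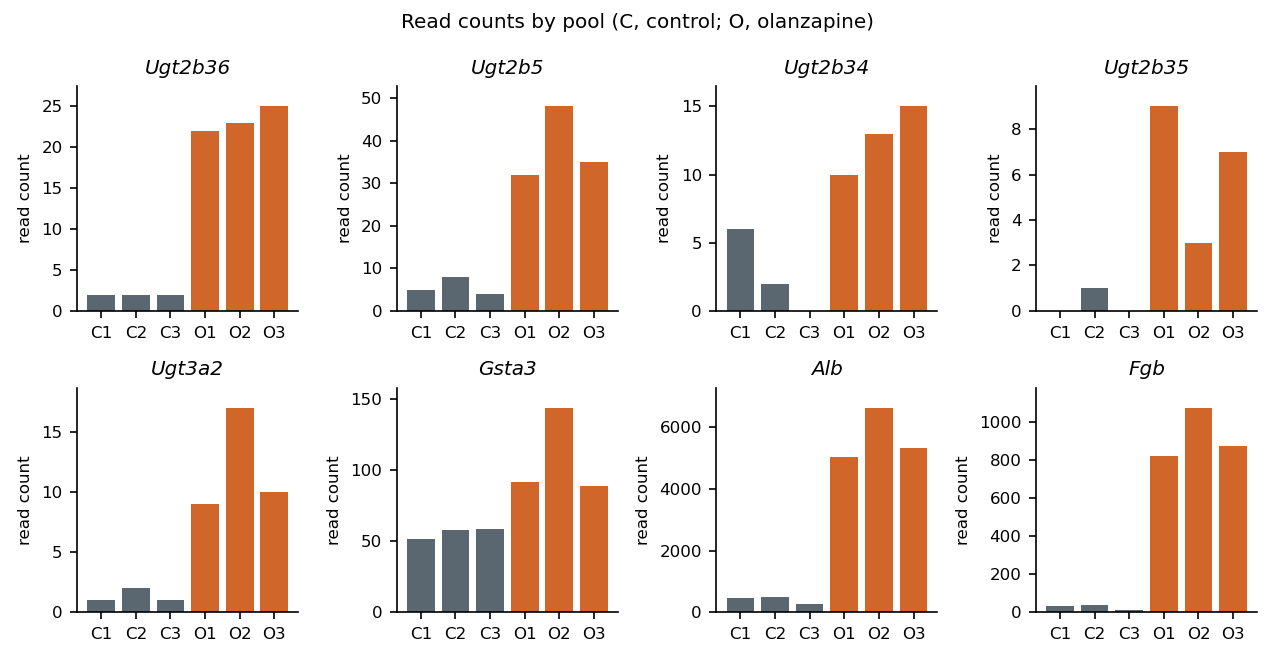
Read counts (y axis, each panel on its own scale from 0) in control pools C1 to C3 and olanzapine pools O1 to O3 for 4 Ugt2b genes, Ugt3a2, Gsta3 and the hepatocyte markers Alb and Fgb. In each of these chosen panels all olanzapine bars are above all control bars. Ugt2b1, Ugt2b37 and Ugt2b38, whose groups overlapped, are not shown. Nor are hepatocyte markers that were not called, such as Uox. Ugt2b36 reaches 25 counts, Gsta3 144 and Alb 6632.

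Most hepatocyte markers rose in the same pools, as the plot of counts by pool shows for albumin and fibrinogen beta. Alb counted 460, 507 and 268 in control and 5049, 6632 and 5345 in olanzapine. Per 1000 Alb counts, Ugt2b36 stood at 4.35, 3.94 and 7.46 in control and at 4.36, 3.47 and 4.68 in olanzapine, so on this scale the groups overlapped. Per 1000 Alb counts Ugt2b5 stood at 10.9, 15.8 and 14.9 in control and 6.34, 7.24 and 6.55 in olanzapine, without overlap and in the other direction. The control values rest on 2 Ugt2b36 reads and at most 8 Ugt2b5 reads per pool, so these ratios are coarse. With 2 reads in each control pool, the control spread for Ugt2b36 is that of Alb alone. The part of liver-type transcripts in the Ugt2b difference was not tested, and in bulk tissue a change in the number of cells of a type cannot be told apart from a change in RNA per cell. Summed counts of 8 small intestine markers (45 to 74 against 39 to 67) and 8 kidney tubule markers (33 to 69 against 24 to 153) overlapped between the groups. Only 2 and 1 of these markers had enough counts to be tested, and 0 were called.

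Ugt3a2, an enzyme that uses sugars other than glucuronic acid, counted 1, 2 and 1 in control and 9, 17 and 10 in olanzapine. It failed the count filter; its pooled count ratio was 9.14 (exact interval 3.27 to 35.3), and in the fit with no filter its log2 fold change was 3.07 with an adjusted p of 0.138 by edgeR. The pools did not overlap, and the olanzapine pools were those with the high hepatocyte sums of 10873 to 14082. The part of liver-type transcripts in the Ugt3a2 counts was not tested. Its neighbour Ugt3a1 had 3 counts in all, 2 in control and 1 in olanzapine pools. Ugt2a3 counted 0, 2 and 0 against 1, 7 and 3, with overlap. Ugt2a1 had 1 count and Ugt2a2 had 0, and these genes share 98.8% and 94.5% of their exonic bases with another gene, so they cannot be counted apart.

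Ugt8a, which adds galactose to ceramide for myelin, was the dominant Ugt gene of this tissue. Its FPKM was 13.4, 12.2 and 12.7 in control and 11.2, 10.8 and 13.3 in olanzapine, with overlap between the groups. The log2 fold change was -0.14 ± 0.10 (SE, 95% interval -0.37 to 0.08, adjusted p = 0.495, edgeR). It made up 94.9% of the family's summed FPKM in control and 87.5% in olanzapine, while the family sum itself was 13.5 ± 0.520 and 13.4 ± 1.25 FPKM (SD, n = 3 each). The share of Ugt2b5 went from 0.564% to 3.98% and that of Ugt2b36 from 0.198% to 2.40%, so the called genes remained a small part of the family's transcripts. Summed counts of the oligodendrocyte markers ranged from 333497 to 414077 in control and from 295164 to 405026 in olanzapine.

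The Ugt1a genes, among them the bilirubin enzyme Ugt1a1, lie on chromosome 1 and are spliced from separate first exons to shared last exons. In the annotation 50.3% to 82.7% of their exonic bases belong to another gene as well, so reads from the shared part cannot be given to one of them, and all values below carry that limit. Ugt1a6a had the highest counts, 43, 57 and 64 in control and 51, 32 and 17 in olanzapine. These overlapped, and the log2 fold change was -0.68 ± 0.43 (SE, 95% interval -1.68 to 0.31, adjusted p = 0.456, edgeR). The olanzapine pools ranked as they did for the brain endothelium sum (6399, 3951 and 3417), but the control pools did not, since control pool 3 was highest for Ugt1a6a and lowest for that sum. The part of endothelial RNA in the Ugt1a6a counts was not tested. In FPKM Ugt1a6a stood at 0.327, 0.434 and 0.492 against 0.402, 0.254 and 0.133, the lowest fold change among the tested Ugt genes. Ugt1a7c, which failed the filter, counted 3, 2 and 28 against 21, 9 and 3, with a high pool in each group. Ugt1a1 counted 1, 0 and 1 against 1, 3 and 3, a difference not detectable at this depth. Ugt1a5, Ugt1a6b and Ugt1a9 had at most 2 counts in all, and Ugt1a2, Ugt1a8 and Ugt1a10 had 0 in every pool.

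Among sulfotransferases the brain form Sult4a1, a neuronal protein for which no strong enzyme activity is established, stood far above the rest. Its FPKM was 140, 127 and 126 in control and 170, 139 and 137 in olanzapine. Olanzapine pool 1 was the highest and the groups overlapped. The log2 fold change was 0.16 ± 0.11 (SE, 95% interval -0.10 to 0.42, adjusted p = 0.498, edgeR), and without olanzapine pool 1 it was 0.03. That pool also had the highest summed count of 4 neuronal markers, 162904 against 108282 and 108667 in the other olanzapine pools and 106408 to 121851 in control. The 8 markers of LS neurons went the other way, with 63235 counts in that pool, the lowest of all, against 73767 to 98501 in the other 5. The part of neuronal RNA in the Sult4a1 level was not tested. Sult4a1 made up 95.4% of the Sult FPKM in control and 95.8% in olanzapine.

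Sult1a1, which sulfates phenols, had an FPKM of 2.19, 2.79 and 3.61 in control and 2.55, 3.54 and 3.41 in olanzapine, a log2 fold change of 0.12 (95% interval -0.33 to 0.57). Sult2b1, which sulfates cholesterol and related sterols, had an FPKM of 2.01, 1.69 and 2.19 in control and 3.13, 1.95 and 1.89 in olanzapine. Its log2 fold change of 0.23 (95% interval -0.34 to 0.79) was set by olanzapine pool 1 and became -0.07 without it. Neither gene separated the groups.

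Sult1c1 and Sult1c2, neighbours on chromosome 17, varied more between pools than between diets. Sult1c2 counted 1, 57 and 97 in control and 6, 78 and 0 in olanzapine. Sult1c1 counted 1, 36 and 22 against 11, 10 and 0. Each group held a pool with at most 1 read of either gene, and the groups overlapped. The log2 fold changes were -0.88 (95% interval -4.15 to 2.40, adjusted p = 0.801) for Sult1c2 and -1.45 (-4.09 to 1.20, adjusted p = 0.558) for Sult1c1 by edgeR. When a pool was left out, that of Sult1c2 moved between -4.01 and -0.02 and that of Sult1c1 between -2.0 and -0.68. The choroid plexus potassium channel gene Kcnj13 counted 32, 1682 and 4332 in control and 705, 2788 and 6 in olanzapine. Sult1c2 ranked the 6 pools in the same order as Kcnj13, and of the 46 members with at least 10 counts it was the only one to do so. The plasma and choroid plexus carrier gene Ttr followed that order too, from 808 to 269659 counts.

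**Figure D3:**
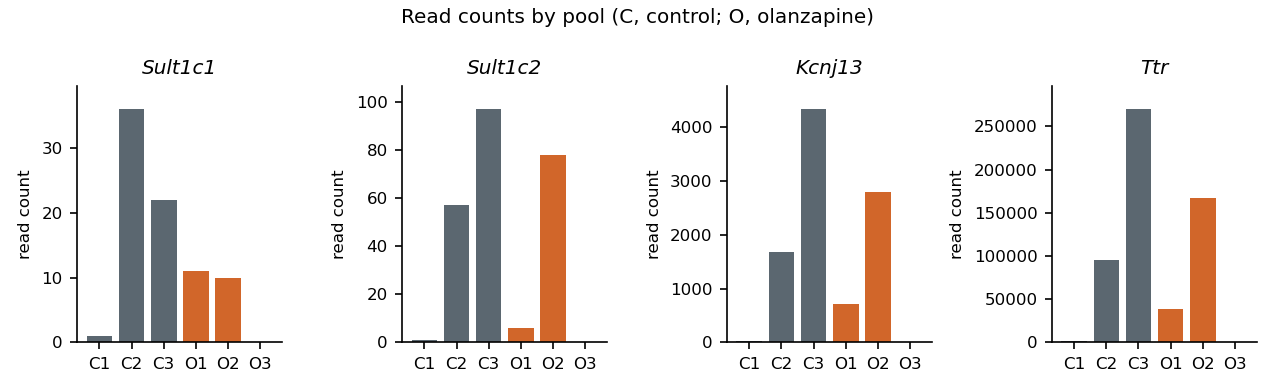
Read counts (y axis, each panel on its own scale from 0) in control pools C1 to C3 and olanzapine pools O1 to O3 for Sult1c1, Sult1c2 and the choroid plexus markers Kcnj13 and Ttr. Sult1c2, Kcnj13 and Ttr are highest in control pool 3, next in olanzapine pool 2 and lowest in olanzapine pool 3.

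In the plot of the Sult1c genes by pool, Sult1c1 did not follow this order: control pool 2 stood above control pool 3. The part of choroid plexus tissue in the Sult1c counts was not tested. Sult1d1, which sulfates catecholamines and other small amines and phenols, counted 0 in every control pool and 7 in every olanzapine pool. Against a floor of 3 counts per library that is at least 2.37-fold higher; it failed the filter, and with no filter its adjusted p was 0.131 by edgeR. The oestrogen sulfotransferase gene Sult1e1 counted 0, 0 and 0 against 3, 1 and 2, at or below that floor in both groups. Sult2a8, a liver bile acid sulfotransferase, counted 1, 1 and 2 against 4, 4 and 6, a pooled ratio of 3.55 (exact interval 1.12 to 14.8). These 3 genes had their higher counts in the olanzapine pools, on few reads. The hepatocyte marker sum was 889 to 1282 in control and 10873 to 14082 in those pools, and its part in these counts was not tested.

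The other Sult2a genes, Sult2a1 to Sult2a7, and both Sult3a genes had 0 counts in all 6 pools, which allows up to 3 counts in a library. Sult5a1 counted 1, 2 and 3 against 2, 9 and 1, a pooled ratio of 2.03 (0.705 to 6.59). Sult6b1 counted 8, 7 and 0 against 2, 0 and 0, Sult6b2 counted 4, 4 and 0 against 9, 0 and 2, and Sult1b1 had 6 counts in all. The groups overlapped in each of these.

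Glutathione transferases had the highest summed level of the 4 families. Summed FPKM was 670 ± 57.2 in control and 692 ± 69.5 in olanzapine (SD, n = 3 each). Of the 23 genes 18 were tested and 0 were called in either direction by edgeR or DESeq2, with 2 of 18 at an unadjusted p under 0.05 by edgeR beside 17.6% of all tested genes. Their log2 fold changes ran from -0.43 to 0.96. Gstm1, a mu-class enzyme of astrocytes and many other cells, had an FPKM of 194, 202 and 224 in control and 180, 226 and 231 in olanzapine. Its log2 fold change was 0.02 ± 0.10 (SE, 95% interval -0.22 to 0.25). Gstm5, the mu-class enzyme of brain and testis, had an FPKM of 151, 149 and 165 against 145, 170 and 180, a log2 fold change of 0.07 (-0.13 to 0.27). Gstp1, the pi-class enzyme, had an FPKM of 141, 136 and 164 against 149, 163 and 156, a log2 fold change of 0.06 (-0.13 to 0.25). In all 3 the groups overlapped, and together they held most of the family's FPKM, at 30.9%, 23.1% and 21.9% in control and 30.6%, 23.8% and 22.6% in olanzapine.

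**Figure D4:**
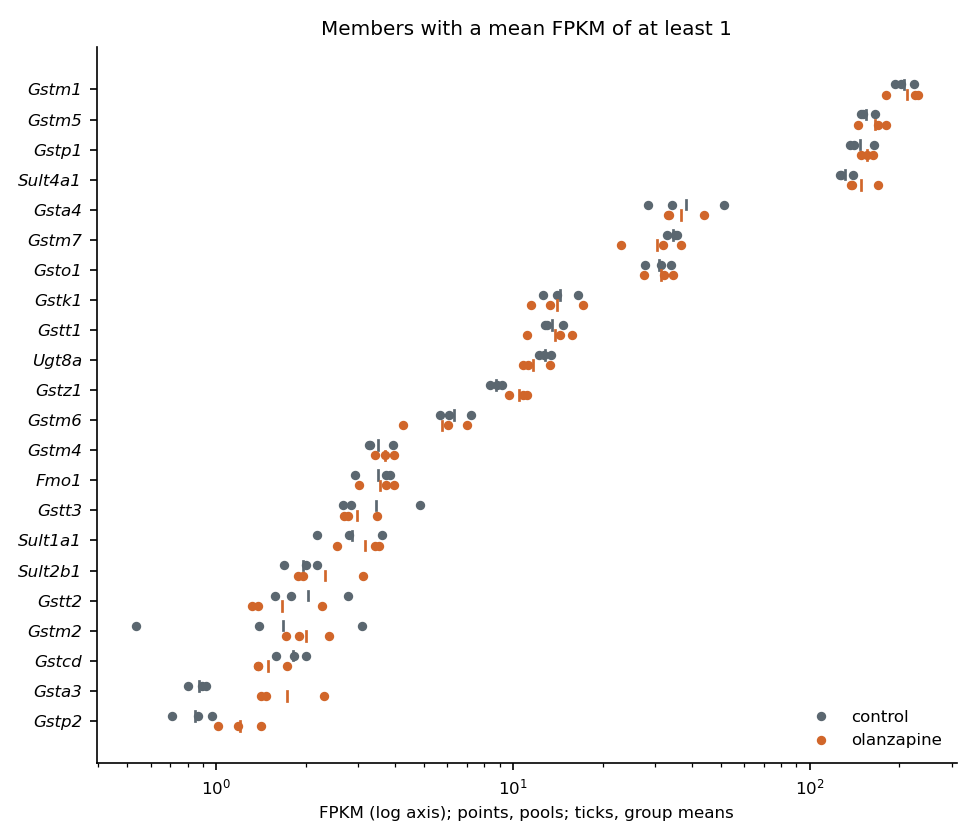
FPKM (log axis) of the 22 members with a mean of at least 1 over the 6 pools, in order of that mean; points are pools in grey for control and orange for olanzapine, and ticks are group means. Gstm1, Gstm5, Gstp1 and Sult4a1 lie above 100 FPKM with overlapping groups, and in Gsta3, Gstz1 and Gstp2 all olanzapine points lie to the right of the control points.

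None of the 22 members in the plot of FPKM was called, and their log2 fold changes ran from -0.33 to 0.96. Gstp1 and its near copy Gstp2 share sequence, with 74.9% and 53.1% of their 100-base stretches unique, so the split of reads between them is uncertain. Gstp2 counted 29, 26 and 21 in control and 34, 29 and 41 in olanzapine, apart in FPKM and overlapping in normalised counts, with a log2 fold change of 0.47 ± 0.35 (SE, adjusted p = 0.526, edgeR). Gsta4, which removes a reactive product of lipid peroxidation, varied within the control group, at an FPKM of 28.5, 34.4 and 51.3 against 33.2, 43.9 and 33.5. Its log2 fold change was -0.07 ± 0.20 (SE, 95% interval -0.54 to 0.40), and it was 0.21 without control pool 3.

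Gsta3, an alpha-class enzyme of liver and steroid-making tissue, had the highest fold change among the 18 tested Gst genes and was not called. It counted 52, 58 and 59 in control and 92, 144 and 89 in olanzapine. The groups did not overlap. Normalised counts were 55.9 ± 3.47 and 109 ± 29.0 (SD, n = 3 each), the log2 fold change was 0.96 ± 0.26 (SE, 95% interval 0.36 to 1.56), and the adjusted p was 0.114 by edgeR. By DESeq2 the adjusted p was 0.0372, still short of the fold limit, and over all alternatives it ranged up to 0.276. The same olanzapine pool 2 that was highest for Gsta3 was highest for Alb. The order of the other olanzapine pools was not the same. Pool 1 stood above pool 3 for Gsta3 (92 and 89 counts) and below it for Alb (5049 and 5345 counts). Unlike Ugt2b36, Gsta3 had more than 50 counts in every control pool.

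Gstz1, the maleylacetoacetate isomerase of tyrosine breakdown, counted 1462, 1406 and 1317 in control and 1486, 1656 and 1715 in olanzapine. The pools lay close together but apart by group, with a log2 fold change of 0.24 ± 0.08 (SE, 95% interval 0.05 to 0.42). It was not called (adjusted p = 0.179, edgeR). In the annotation 12.2% of its exonic bases also lie in exons of another gene. The lowest fold change was that of Gsto2, an omega-class enzyme that reduces dehydroascorbate, with 54, 40 and 30 counts against 20, 47 and 24. That is a log2 fold change of -0.43 (95% interval -1.42 to 0.56, adjusted p = 0.652, edgeR), with overlapping groups.

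The remaining tested Gst genes all had intervals that included zero. Gstm7 had a log2 fold change of -0.20 (-0.54 to 0.14), Gsto1 -0.01 (-0.25 to 0.23), Gstk1 -0.07 (-0.44 to 0.30) and Gstt1 0.0058 (-0.32 to 0.34). Gstcd, Gstt2, Gstt3 and Gstm6 lay between -0.33 and -0.16, and Gstm4, Gstm2 and Gstp2 between 0.06 and 0.47. Among Gst genes too low to be tested, Gstp3 counted 0, 1 and 0 against 6, 9 and 2, a pooled ratio of 17.3 (exact interval 2.70 to 721). The liver enzyme gene Gsta1 counted 5, 0 and 0 against 19, 7 and 8, and its near copy Gsta2 counted 0, 1 and 1 against 8, 0 and 3. Gstp3 and Gsta1 separated the groups and Gsta2 did not. Only 19.4% of the 100-base stretches of Gsta1 and 71.6% of those of Gsta2 were unique, so their counts are uncertain. The gene sharing most of these stretches was Gm3776 for Gsta1 and Gsta1 for Gsta2. Gstp3, Gsta1 and Gsta3 were higher in the pools with the high hepatocyte sums (10873 to 14082 against 889 to 1282), whose part in them was not tested. Gstm3 counted 2, 5 and 6 against 4, 10 and 14, and Gstt4 had 0 counts in all pools.

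Many Gst genes are known targets of the stress regulator NRF2, which binds the antioxidant response element. The core of that element, TGACNNNGC on either strand, occurred in the 300-base promoters of Gsta3, Gstm5 and Gstm7, 3 of 63 members with a promoter, and in 12.4% of all 32851 promoters. Of 4 other NRF2 targets (Nqo1, Hmox1, Txnrd1 and Srxn1), 0 were called and 0 had an unadjusted p under 0.05 by edgeR. Their log2 fold changes ran from 0.0071 down to -0.22 for Nqo1, whose SE was 0.36.

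The Fmo family was low and even. Summed FPKM was 4.85 ± 0.627 in control and 4.94 ± 0.751 in olanzapine (SD, n = 3 each), and 0 of 3 tested genes were called, or reached an unadjusted p under 0.05, by edgeR; DESeq2 called 0 as well. Fmo1, which oxygenates drugs at nitrogen and sulfur, made up 72.1% of the family's FPKM in control and 72.4% in olanzapine. Its FPKM was 2.92, 3.74 and 3.85 in control and 3.02, 3.97 and 3.72 in olanzapine. The log2 fold change was 0.0041 ± 0.15 (SE, 95% interval -0.34 to 0.34). Fmo5, which acts on ketones more than on amines, counted 262, 275 and 311 against 192, 275 and 323, a log2 fold change of -0.08 (-0.54 to 0.37). Fmo2, known as the lung form, counted 70, 83 and 76 against 71, 97 and 86, a log2 fold change of 0.17 (-0.35 to 0.69). In all 3 the groups overlapped. Fmo4 counted 1, 7 and 9 against 3, 5 and 3 and was not tested. Fmo6 and Fmo9 had 0 counts in all 6 pools, which allows up to 3 counts in a library.

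The rest of the conjugation pathway was read from a list of 47 genes, of which 43 were tested. Of these, 1 was called higher by edgeR and 0 lower, beside 0.950% and 0.0580% of all tested genes. At an unadjusted p under 0.05 the count was 6 of 43, beside 17.6% of all tested genes. These 6 include Hnf4a and Baat, both of which passed the filter only through their olanzapine pools. The gene called was Hnf4a, a transcription factor of liver and intestine, with 1 count in each control pool and 32, 34 and 35 in the olanzapine pools. Its adjusted p was 0.00389 and its log2 fold change 4.93 ± 0.52 (SE), in the same pools in which hepatocyte markers were high. With 1 count per control pool, it passed the filter only through its olanzapine pools and so had to differ once tested. Among the other 7 regulators, 4 were tested, with 0 calls. The drug-sensing receptor genes Nr1i2 and Nr1i3 were too low to be tested, Nr1i2 at 0, 6 and 10 against 4, 14 and 4 counts and Nr1i3 at 0, 0 and 0 against 2, 13 and 5. The 13 genes of cofactor supply had 0 calls and log2 fold changes from -0.30 for Ggt1 to 0.22 for Gss. Among them were Ugdh, which makes UDP-glucuronic acid, at 0.08 ± 0.10 (SE), and Papss1, which makes PAPS, at 0.01 ± 0.08 (SE). Gclc, the first enzyme of glutathione synthesis, was at -0.09 ± 0.07 (SE).

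The 5 hydrolases and other enzymes that act beside or against conjugation, among them the steroid sulfatase gene Sts, ran from -0.21 to 0.19 with 0 calls. Other conjugating enzymes, 11 tested of 12, ran from -0.39 for Nat2 to 1.96 for Baat, which joins bile acids to taurine and glycine. Baat counted 2, 8 and 9 against 23, 34 and 17 without overlap, and was not called (adjusted p = 0.149, edgeR). With every control count under 10, Baat passed the filter only through its olanzapine pools and so had to differ once tested. Gnmt, the glycine N-methyltransferase of liver, counted 10, 55 and 45 against 97, 125 and 99 (log2 fold change 1.56, adjusted p = 0.168) and was called by DESeq2, though not by edgeR. Por, which passes electrons to cytochrome P450 enzymes, had the only unadjusted p under 0.05 among the cofactor genes, at -0.21 ± 0.07 (SE, adjusted p = 0.181, edgeR). The 5 exporters ran from -0.48 for Abcc4 to 1.47 for Abcc2, the canalicular pump for conjugates. Abcc2 counted 1, 8 and 4 against 11, 13 and 12 and was not called (adjusted p = 0.318, edgeR). Like Baat, Abcc2 passed the filter only through its olanzapine pools and so had to differ once tested. DESeq2 called 2 of the 43 genes, Hnf4a and Gnmt. Hnf4a, Baat, Gnmt and Abcc2 were higher in the pools in which the hepatocyte sum was 10873 to 14082, against 889 to 1282 in control, and its part in their counts was not tested. Abcc3 counted 73, 96 and 90 against 126, 134 and 111 (log2 fold change 0.54 ± 0.21, SE, adjusted p = 0.229, edgeR). Abcg2 counted 408, 460 and 453 against 382, 336 and 230 (-0.45 ± 0.19, SE, adjusted p = 0.278). These exporters lay in opposite directions, each without overlap between the groups, and neither was called. Abcg2 ranked the olanzapine pools as the brain endothelium sum did, at 6399, 3951 and 3417. It did not rank the control pools that way (lowest in pool 1, where the sum was lowest in pool 3), and the part of endothelial RNA in its counts was not tested.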

How the data were processed

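RNA was sequenced from 6 pools of the lateral septum, 3 per diet, each from 3 mice. Groups were taken from the sample labels. The submitters' processing notes name fastp, HISAT2, HTSeq and mm10. Their versions, the strand setting and the treatment of reads with several matches are not given in the sources used here. The authors deposited raw counts per gene and FPKM per gene. No column of per-sample values was left unused (0 columns).

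The counts were filtered over all genes (edgeR filterByExpr, minimum count 10, minimum total 15), scaled by TMM and compared between diets, with no other term, by the quasi-likelihood F test of edgeR 4.0.16 (R 4.3.3) and Benjamini-Hochberg adjustment over the 17255 genes kept. A call needed an adjusted p below 0.05 together with more than 1 log2 unit of change, up or down. The standard error (SE) is the size of the log2 fold change divided by the square root of F. Normalised counts are counts scaled to a common TMM library size. Levels of different genes were compared on FPKM only. Ratios of low counts have exact 95% intervals on pooled counts. Intervals and the floor of 3 counts per library cover counting error only. The p-values measure the spread between these pools.

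Members and gene lists were chosen with earlier results of these data known. Values are given for called members, for the 4 members with the highest FPKM in each family, for the largest rise and fall not called, and for untested members with at least 10 counts. Members with an unadjusted p under 0.05 could also be named. Values of Gstp2, Gstm7, Gsto1, Gstk1 and Gstt1, ranges of the other tested Gst genes and counts of lower members fall outside this rule and were added after the values had been seen. Alternatives were DESeq2 1.42.0, RLE and upper-quartile scaling, no filter, a mean of at least 50 counts, a replicate block, limma 3.58.1 on log2(FPKM + 1) and log2(FPKM + 0.1), no fold limit, and each pool left out. Symbols of 73 of 73 members matched GENCODE M21 and RefSeq on GRCm38, the build of mm10. Shared sequence was measured as 100-base stretches of annotated exons found in no other gene. The values of 1 member are not reported here.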

Additional observations from a re-analysis of the deposited data

How the results depend on the processing

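The 2 members called higher, Ugt2b36 and Ugt2b5, were also called by DESeq2, with RLE or upper-quartile scaling, with no count filter, with no fold limit and by limma on log2(FPKM + 0.1). With a mean of at least 50 counts 0 members were called, since both genes were then filtered out. By limma on log2(FPKM + 1), with or without the filter, 0 were called: the pseudocount held the log2 fold changes to 0.36 and 0.50, with adjusted p of 0.0272 and 0.0267 with the filter, under the fold limit. Leaving out one pool gave 0 to 2 members called. With the replicate block 0 were called (Ugt2b36 3.48, adjusted p = 0.0835; Ugt2b5 2.77, adjusted p = 0.0788; edgeR). Deviations of same-numbered pools correlated at -0.003, 0.062 and -0.255, so the numbers were not taken to pair the samples. Over the whole table edgeR called 164 genes higher and 10 lower, against 263 and 34 by DESeq2, 86 and 0 with the block, 65 and 0 by limma on log2(FPKM + 1), and 60 and 0 without its filter. Leaving out one pool gave 85 to 158 higher and 0 to 18 lower. The count of members called lower was 0 in all of these. With no filter the members' median log2 fold change was 0.16 in place of 0.0058, over 56 members.

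Signs turned in members near zero: Fmo1 was -0.0011 with no filter, and with one pool left out the log2 fold changes ran from -0.11 to 0.10 for Fmo1, -0.26 to 0.09 for Fmo5, -0.24 to 0.21 for Gsta4, -0.06 to 0.11 for Gstm1, -0.0043 to 0.14 for Gstm5, -0.03 to 0.33 for Sult1a1 and -0.07 to 0.35 for Sult2b1. The cause was not tested. Counts under 10 per pool limit what can be said of the Ugt2b, Ugt3a, Sult1d and Sult2a genes.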
